A study of Mus musculus with 2 samples.

Results

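G protein alpha subunits are the GTP-binding parts of the heterotrimeric proteins that carry signals from cell surface receptors. The genes described here are 8 of them: Gnaq, Gna11 and Gna15 of the Gq class, Gna12 and Gna13 of the G12/13 class, Gnai2 and Gnai3 of the Gi class, and Gnas of the Gs class. The genes were chosen by family, with the read values of these libraries already known from earlier work, and their regions were taken by symbol from the authors' deposited table of 20615 H3K9ac regions, which carries 12553 gene symbols. Of the 8 genes, 5 had a region (6 regions in all, since Gnaq had 2), and Gna11, Gna13 and Gnas had none among the regions analysed here. The values of the members are therefore a description and carry no test.

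H3K9ac, acetylated lysine 9 of histone H3, is found at active promoters and enhancers, and was measured by chromatin immunoprecipitation with sequencing. The material was leukemic spleen cells of mice, 1 library from each of 2 genotypes (labelled strains Gfi1 36S/S-Nup98/HoxD13 and Gfi1 36N/N-Nup98/HoxD13). Both genotypes share the NUP98/HOXD13 fusion, a driver of myelodysplasia and leukemia, and both carry a human cDNA of the repressor GFI1, in its 36S form in one and its 36N form in the other. Spleen cells were freed of red cells by lysis and fixed with 0.4% formaldehyde; no sort for a cell type is described, and ages, the number of animals behind a library and the promoter that drives the fusion are not stated. Each genotype being 1 library, no difference could be checked against replicates and none has a p-value.

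A receptor that binds its ligand makes the alpha subunit exchange GDP for GTP and part from the beta-gamma pair, after which both pieces act on effectors until the alpha subunit hydrolyses its GTP. Gq class subunits switch on phospholipase C beta, which releases calcium and activates protein kinase C. G12/13 class subunits act through guanine nucleotide exchange factors, Gs raises cyclic AMP through adenylyl cyclase, and Gi lowers it and serves most chemokine receptors of leukocytes. In mice Gna15 is known for expression largely limited to blood cells, whereas Gnaq, Gna12, Gnai2, Gnai3 and Gnas are broadly expressed.

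Of the 5 genes with a region, 4 had one over their RefSeq start, and 3 of these starts are shown: Gnaq, whose H3K9ac difference stood apart, Gna15, of the same class, and Gnai3, the strongest region. Each sequence runs from 250 bases before to 50 bases after the RefSeq start (GRCm38.p6), 5′ to 3′ on the gene's strand, and capitals mark GC boxes (GGGCGG), the CRE core (TGACG) and ETS motifs (CCGGAAG), searched on both strands. The sequences are those of Gnaq (chr19:16132434-16132733, plus strand), Gna15 (chr10:81524176-81524475, minus strand) and Gnai3 (chr3:108146103-108146402, minus strand).
Gnaq: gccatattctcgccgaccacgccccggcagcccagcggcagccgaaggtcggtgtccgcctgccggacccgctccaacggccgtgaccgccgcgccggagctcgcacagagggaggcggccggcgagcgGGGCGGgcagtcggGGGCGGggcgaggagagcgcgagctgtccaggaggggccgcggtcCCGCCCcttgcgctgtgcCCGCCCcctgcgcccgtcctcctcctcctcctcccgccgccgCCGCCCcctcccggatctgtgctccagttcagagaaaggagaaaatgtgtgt
Gna15: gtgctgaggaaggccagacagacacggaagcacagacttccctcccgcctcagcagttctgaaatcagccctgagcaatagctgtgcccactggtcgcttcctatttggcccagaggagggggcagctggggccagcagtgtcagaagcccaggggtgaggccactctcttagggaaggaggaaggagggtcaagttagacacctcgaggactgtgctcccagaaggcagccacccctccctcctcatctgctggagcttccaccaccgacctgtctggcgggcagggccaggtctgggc
Gnai3: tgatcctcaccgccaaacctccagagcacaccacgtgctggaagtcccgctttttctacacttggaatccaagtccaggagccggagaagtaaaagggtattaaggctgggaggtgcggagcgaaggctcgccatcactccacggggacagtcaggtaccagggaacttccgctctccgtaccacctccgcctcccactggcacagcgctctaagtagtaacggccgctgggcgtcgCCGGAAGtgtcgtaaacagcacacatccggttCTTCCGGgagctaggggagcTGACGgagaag

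The Gnaq sequence held 39 CpG dinucleotides and was 75.0% G or C, against medians of 7.00 and 52.7% over 32851 RefSeq promoters of the same length. Gnai3 held 21 CpG (59.3% G or C), Gna12 30 (65.7%), and Gna15 only 6 (62.3%). Members without a region were as rich or richer in part: Gna11 held 48 (75.0%), Gna13 40 (76.7%) and the Gnas windows 16 to 40 (61.0 to 81.7%). GC boxes were present in Gnaq (5 matches) and Gna12 (7 matches, some of them overlapping) and absent from the Gnai3 and Gna15 windows. Gna11, Gna13 and some Gnas windows held them too, which made 6 of the 10 member windows, and 35.7% of all promoters hold at least 1. The Gnai3 window held 2 ETS matches, a motif that 8.86% of all promoters hold, and 1 CRE core, which 20.8% hold. The GFI1 core AATCNNNGC was in none of the 10 windows, which belong to all the listed genes but Gnai2 (it has no entry), and is in 10.3% of all promoters. A match is a run of letters and not a bound site, and its absence says nothing of binding elsewhere.

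Gnaq was the only measured member with higher H3K9ac in the 36N library, 2.70-fold at its start on the deposited scale, while Gna15, Gna12, Gnai2 and Gnai3 were lower by similar amounts. The region over the Gnaq start (chromosome 19, 16131901 to 16134300, mm10) held 218 reads in 36S and 577 in 36N, deposited log2 values of 7.77 and 9.20. Subtracting the 36S from the 36N log2 value gave a difference of 1.43, with an exact 95% interval of 1.20 to 1.66; like all intervals below it covers counting error and leaves out variation among animals. The 36N library was thus the higher of the 2, and the counting intervals of the reads (190 to 249 and 531 to 626) did not overlap. The region runs from 783 bp before the Gnaq start to 1616 bp after it and overlaps no other RefSeq gene.

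**Figure D1:**
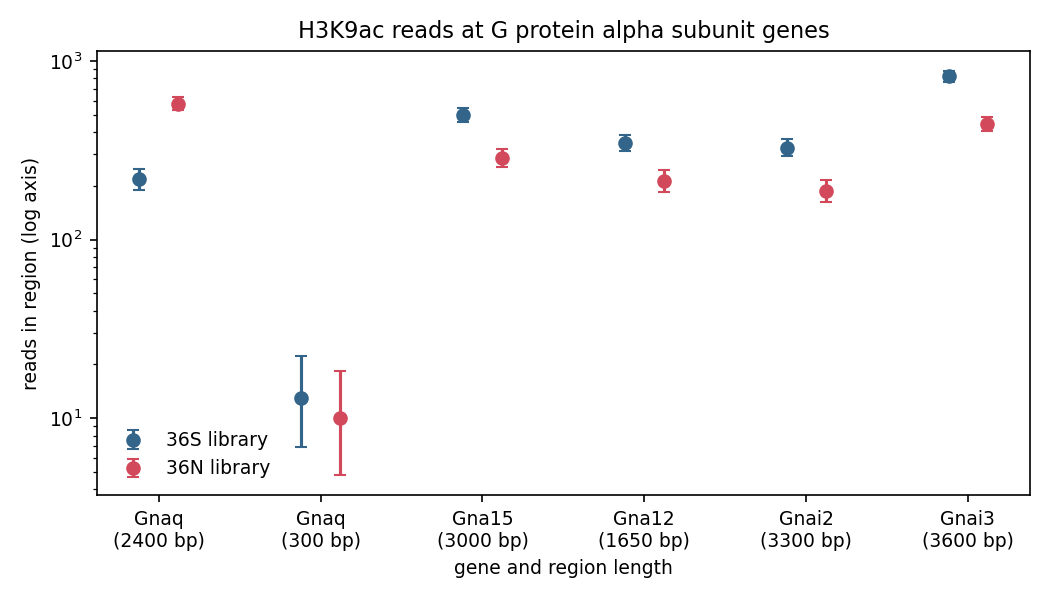
H3K9ac reads (log axis) in each of the 6 regions of G protein alpha subunit genes, in the 36S and the 36N library; points are reads in 1 library and bars exact 95% Poisson intervals. The 2400 bp Gnaq region is higher in 36N (577 against 218 reads), the short Gnaq region has 13 and 10 reads with overlapping intervals, and the other 4 are lower in 36N.

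A second region lay within the Gnaq gene, 134817 to 135116 bp after its start (chromosome 19, 16267501 to 16267800), where the predicted gene Gm10819 also lies. It held 13 reads in 36S and 10 in 36N, log2 values of 3.70 and 3.35, and so stood near the bottom of the table by mean level (percentile 1.1). The difference of −0.35 ran from −1.70 to 0.95 in its interval: at this depth none was detectable.

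Gna15, the blood cell member of the Gq class, had 502 reads in 36S and 288 in 36N over its start (chromosome 10, 81522901 to 81525900), log2 values of 8.97 and 8.20 and a difference of −0.77 (−0.99 to −0.56). Gna12, the G12/13 class gene with a region, had 348 and 214 reads (chromosome 5, 140829001 to 140830650), log2 values of 8.44 and 7.77 and a difference of −0.67 (−0.93 to −0.43). In both genes the 36S library was the higher, opposite to Gnaq. Gnai3, a Gi subunit, had 823 reads in 36S and 445 in 36N (chromosome 3, 108143851 to 108147450), log2 values of 9.68 and 8.82 and a difference of −0.86 (−1.03 to −0.69). It was the strongest member region by mean level (percentile 93.7 of all regions).

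The region given to Gnai2, the Gi subunit prominent in leukocytes, does not cover that gene. It (chromosome 9, 107610601 to 107613900) held 328 and 188 reads, log2 values of 8.36 and 7.58 and a difference of −0.78 (−1.04 to −0.51), with the 36S library again the higher. The table places it 238 bp away under the word upstream, and RefSeq places it 225 bp outside the gene, over no other RefSeq gene. For 2287 of 2292 regions outside genes whose strand RefSeq gives (99.8%), the table's word was the opposite of the region's side by strand, so that upstream stood for a region beyond the 3′ end. By that reading the Gnai2 value is from just past the end of the gene and not from its promoter.

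**Figure D2:**
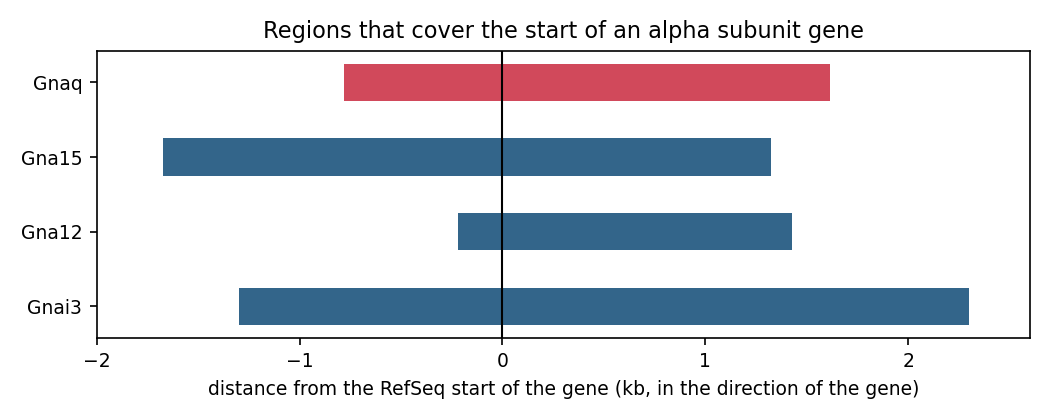
Extent of the 4 regions that cover the RefSeq start of their gene, as distance from that start in kb in the direction of the gene (negative is before the start). Gnaq (red) spans from 783 bp before to 1616 bp after its start, and Gna12 has the shortest region, 1650 bp.

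Among all 20615 regions, 7.49% were higher in 36N by 1 log2 unit (2-fold) or more and 14.1% were lower by as much, a rule of size and not a test. Of the 6 member regions 1 was higher by that rule, over the Gnaq start, and none was lower; of the values closest to the rule, that of Gnaq lay inside at 1.43 and that of Gnai3 outside at −0.86. The median of all regions was −0.40 and that of the 6 member regions −0.72. Strong regions tended to be lower in the 36N library, so each difference was also measured from the value that a lowess curve gives for regions of that mean level (the trend). On this level-adjusted scale 8.12% of all regions were higher by 1 log2 unit or more and 8.30% lower, and centring on the median region instead gave 2964 higher and 1054 lower in place of 1545 and 2915. Gnaq stood 2.11 above the trend, at percentile 98.8 of all regions.

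The other members moved with regions of their own level. Gna15, Gna12, Gnai2 and Gnai3 had differences between −0.86 and −0.67, where the trend ran from −0.74 to −0.56, which left level-adjusted differences between −0.21 and −0.08. The counting intervals of these 4 differences overlapped one another, and all lay below that of Gnaq. In the tenth of regions by mean level that holds the Gnaq and Gna15 regions (2061 regions), the median difference was −0.75, 3 regions, that of Gnaq among them, were higher by at least 1 log2 unit, and 358 were lower by that much.

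**Figure D3:**
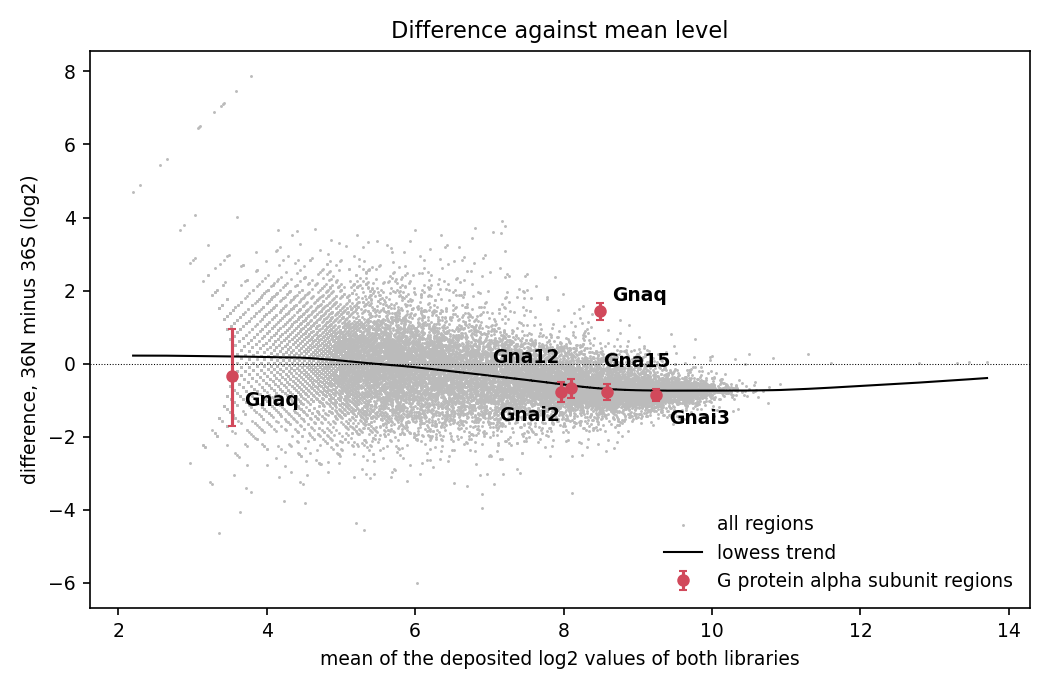
Difference in H3K9ac (36N minus 36S, log2) against the mean of the deposited log2 values for all 20615 regions (grey), with the lowess trend (line) and the 6 G protein alpha subunit regions (red, bars are exact 95% counting intervals). The Gnaq start region, at 1.43, lies far above the trend, and Gna15, Gna12, Gnai2 and Gnai3 lie on or near it.

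Ratios within a library do not depend on the scaling between libraries. They come from the same reads as the differences above and restate them, so they are not a separate result. In the 36S library the Gnaq start region held 0.265 times the reads of the Gnai3 region (0.227 to 0.308), and in the 36N library 1.30 times (1.14 to 1.47). Against Gna15, the other measured Gq class gene, the ratio was 0.434 (0.369 to 0.510) in 36S and 4.61 times as large in 36N. Over Gnai3, Gna12, Gnai2 and Gna15 the ratio was 4.30 to 4.90 times as large in the 36N library. Of all reads in the 6 regions, the Gnaq start took 9.77% in 36S (exact binomial interval 8.57 to 11.1, of 2232 reads) and 33.5% in 36N (31.3 to 35.8, of 1722 reads).

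The order of the genes by H3K9ac level, in reads per kb of region (for Gnai2 the region outside the gene), therefore differed between the libraries. In the 36S library it ran Gnai3 (229 reads per kb), Gna12 (211), Gna15 (167), Gnai2 (99.4) and Gnaq (90.8). The Poisson intervals of Gnai3 and Gna12 overlapped there, as did those of Gnai2 and Gnaq, while Gna15 stood apart from both pairs. In the 36N library Gnaq was first with 240 reads per kb (221 to 261), apart from all others, followed by Gna12 (130), Gnai3 (124), Gna15 (96.0) and Gnai2 (57.0). Gna12 and Gnai3 again overlapped in 36N, and Gna15 and Gnai2 stood apart from their neighbours in the order.

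Gna11, Gna13 and Gnas are not measured by this set of regions. The region nearest to the Gna11 start (chromosome 10, gene at 81528724 to 81545162 in RefSeq) was 13589 bp away and is given to Aes, and the Gna15 region lies 2824 bp past the Gna11 gene. The region nearest to Gna13 (chromosome 11, 109362794 to 109401369) was 13844 bp from its start. Within the RefSeq span of Gnas (chromosome 2, 174284320 to 174346744), an imprinted locus with several promoters, lay 1 region that the table gives to Nespas, the antisense transcript Gnasas1 of RefSeq. It (174294301 to 174295650) held 144 reads in 36S and 36 in 36N, a difference of −1.97 (−2.54 to −1.44), and lay 9981 bp from the nearest listed Gnas start. A fragment of chromatin cannot be assigned to Gnas or to the antisense gene, so this value is not counted for Gnas.

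Some regions around Gnaq on chromosome 19 were also higher in the 36N library, and others were not. Gna14, a further Gq class gene that follows Gnaq in the same direction 47146 bp beyond its end, had 23 reads in 36S and 106 in 36N over its start (16435651 to 16437000), a difference of 2.23 (1.57 to 2.95). A pair of regions with no gene in the table (RefSeq has the predicted gene Gm32026 at the second), centred 82.2 and 68.4 kb before the Gnaq start, had 12 and 36 reads (difference 1.61, 0.64 to 2.69) and 16 and 50 reads (1.67, 0.83 to 2.58). Both start sites and both of these regions were thus higher in the 36N library. The next regions on that side, given to Cep78 and Psat1, were not: Cep78 was at −0.30 (−0.79 to 0.20) and −0.28 (−0.56 to −0.01), and Psat1 at −0.57 (−0.81 to −0.34) and −0.08 (−0.75 to 0.58). The median difference over all 708 regions of chromosome 19 was −0.43, close to the −0.40 of the whole table.

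**Figure D4:**
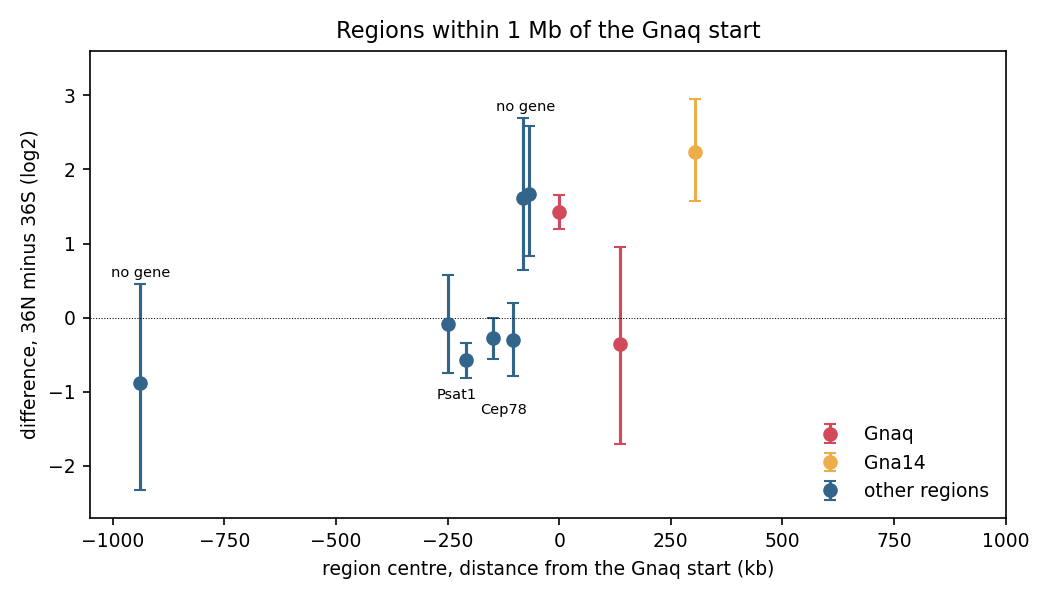
Difference in H3K9ac (36N minus 36S, log2) of the 10 regions within 1 Mb of the Gnaq start, by distance of the region's centre from that start in kb; bars are exact 95% counting intervals. The Gnaq start (1.43), the Gna14 start (2.23) and 2 regions with no gene in the table before Gnaq (1.61 and 1.67) are above 0, and the Cep78 and Psat1 regions are below it.

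Partners, regulators and effectors of the alpha subunits went both ways. Among the strongest regions of each gene, Plcb4 had the highest difference on both scales, followed by Plcb1 and Pde8a as deposited and by Pde8a and Plcb1 on the level-adjusted scale. Of 99 listed genes 55 had a region, each gene being represented by its strongest. As deposited 6 were higher in 36N by 1 log2 unit or more and 6 lower, with a median of −0.46 against −0.53 over 12553 genes, of which 7.37% were higher and 12.6% lower. On the level-adjusted scale 7 were higher and 5 lower, with a median of 0.05 against 0.02 over all genes, of which 8.66% were higher and 4.27% lower. The medians were thus close to those of all genes. On the level-adjusted scale the listed genes passed 1 log2 unit in both directions at a larger share than all genes did. That rests on few genes, and as deposited the share of lower genes was not larger. The 5 lower ones include Prkar2b, through a distant region, and Arhgef1, with 18 and 9 reads (difference −0.97, −2.31 to 0.26). No difference in share was tested.

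The phospholipase C beta enzymes are direct targets of Gq class subunits, and their measured genes were split. Plcb2, also listed, had no region among those analysed here. Plcb4 had 28 reads in 36S and 253 in 36N over its start (chromosome 2, 135658501 to 135660150), a difference of 3.20 (2.64 to 3.82). Plcb1, whose region lies 871 kb before that of Plcb4 on the same chromosome, had 20 and 134 reads (2.77, 2.09 to 3.53). Plcb3 on chromosome 19 had 391 and 255 reads and a difference of −0.59 (−0.82 to −0.36), 0.06 from the trend. Plcb1 and Plcb4 were therefore weak in 36S and higher in 36N, like Gna14, and Plcb3 was a strong region that moved with its level. Of the 6 measured genes among 7 listed Gq effectors, 2 were higher and 2 lower by 1 log2 unit or more. The lower ones were guanine nucleotide exchange factor genes, Arhgef25 with 564 and 164 reads (−1.76, −2.02 to −1.50) in a region that also overlaps Dtx3, so that its reads cannot be assigned to either gene, and Kalrn at −1.86 (−2.54 to −1.22) through a region away from its listed start.

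Among the other listed alpha subunit genes, only Gna14 and Gnal had a region (2 of 8), and Gnal, the olfactory relative of Gnas, was at −0.65 (−0.86 to −0.45), 0.05 from the trend, in a region shared with Chmp1b. Of the beta subunits 3 of 5 were measured. Gnb5, the atypical beta subunit that pairs with RGS proteins, had 57 and 134 reads and a difference of 1.26 (0.80 to 1.73), in a region inside the gene that does not cover its listed start and also overlaps the predicted gene Gm19531. Gnb1, a common beta subunit with a strong region, was at −0.38 (−0.52 to −0.24), 0.36 above the trend. Of the gamma subunits 5 of 12 were measured and none passed 1 log2 unit on either scale; Gng3 was at −0.92 (−1.18 to −0.66) in a region shared with Bscl2.

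RGS proteins speed the hydrolysis of GTP by alpha subunits, and 10 of 20 listed genes were measured. As deposited 1 was higher by 1 log2 unit or more, Rgs16 with only 14 and 33 reads (1.26, 0.32 to 2.28), and 2 were lower. Rgs12 had 653 and 254 reads over its start (−1.34, −1.55 to −1.12; 0.63 below the trend), and Rgs6 had 193 and 65 (−1.54, −1.97 to −1.13) in a region inside the gene. Rgs2, which acts on Gq class subunits, had 368 and 431 reads, a difference of 0.25 (0.05 to 0.46) that lay 0.96 above the trend. Of the chaperones and GoLoco regulators, 3 of 6 were measured and none passed 1 log2 unit as deposited (1 lay more than that above the trend): Ric8b, a folding chaperone of alpha subunits, was at −0.39 (−0.61 to −0.18) and Gpsm2, which binds Gi subunits in spindle orientation, at −0.47 (−0.73 to −0.22).

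Adenylyl cyclases make cyclic AMP, and 3 of 9 were measured; by their strongest regions none passed 1 log2 unit on either scale. Adcy7, the main form of blood cells, was at −0.87 (−1.13 to −0.61), but a further region of it, with 349 and 150 reads, was at −1.19 (−1.48 to −0.91), and Adcy9 was at −0.49 (−0.76 to −0.22). Of the cyclic AMP-dependent kinase and Epac list 9 of 11 were measured. By strongest regions 1 was lower by 1 log2 unit or more, the regulatory subunit gene Prkar2b. Its value of −1.74 (−2.14 to −1.36) came from a region given to it at a distance of 49055 bp. In RefSeq that region overlaps 5430401H09Rik and Gm51991, so its reads cannot be assigned to Prkar2b. The strongest region inside Prkar2b was at −0.86 (−1.24 to −0.47) and did not pass 1 log2 unit. The regulatory subunit genes Prkar1b (its region shared with Dnaaf5) and Prkar2a were at −0.84 (−1.11 to −0.58) and 0.39 (0.13 to 0.66). Of the phosphodiesterases 8 of 10 were measured and 1 passed: Pde8a, which degrades cyclic AMP, had 78 and 418 reads over its start (chromosome 7, 81211801 to 81214650), a difference of 2.45 (2.10 to 2.82). Pde4b and Pde4d, the forms prominent in leukocytes, were at −0.43 (−0.63 to −0.23) and −0.93 (−1.19 to −0.67). The Pde4d region does not cover its listed start. The 18 regions given to Pde4d ran from −1.79 (81 and 23 reads) to 0.99 (37 and 72 reads), so its strongest region does not describe the whole gene.

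The remaining lists were small. Of the G12/13 effectors 2 of 4 had a region, both below the median level of all genes, and neither passed 1 log2 unit as deposited, though 1 lay more than that below the trend. Of receptor kinases and arrestins, which silence activated receptors, 4 of 7 were measured, and Grk6 was lower with 875 and 398 reads (−1.11, −1.28 to −0.94; 0.37 below the trend), while Grk5 was at −0.72 (−0.95 to −0.49).

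**Figure D5:**
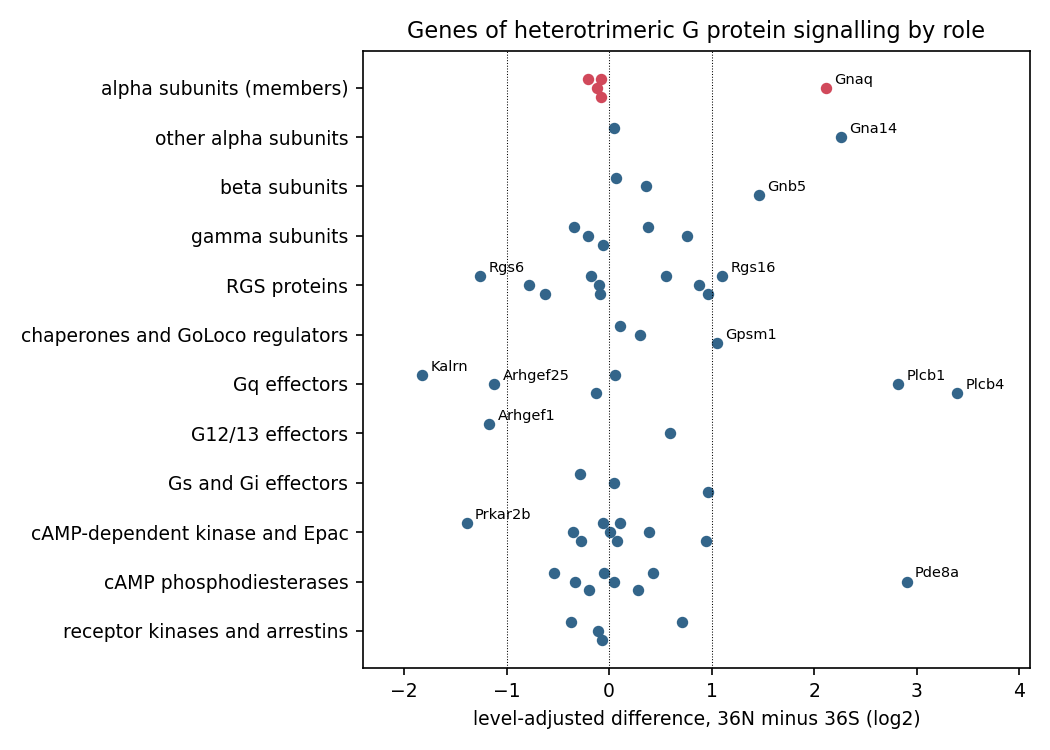
Level-adjusted difference in H3K9ac (36N minus 36S, log2; distance from the lowess trend) of genes of G protein signalling by role, 1 point per gene at its strongest region, with lines at −1, 0 and 1 and the alpha subunits of the report in red. Gnaq (2.11), Gna14 (2.26), Plcb1 (2.82), Pde8a (2.90) and Plcb4 (3.39) stand at the right.

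The leukemic spleen label was checked against marker genes, and lists of other cell types differed between the libraries. The leukocyte and myeloid markers with a region (Ptprc, Laptm5, Sfpi1, Itgam and Csf3r, 5 of 8) had summed reads of 552 and 1344 in 36S and 485 and 1288 in 36N, and none differed by 1 log2 unit. Erythroid markers (3 of 5 measured) summed to 1519 reads in 36S and 351 in 36N, each of them lower in 36N (differences from −2.52 to −1.76), and T cell markers (2 of 3) to 596 and 199. Endothelial and stromal markers (3 of 4) summed to 131 and 159 reads. These sums are not scaled, and reads in all regions were 0.672 times as many in 36N as in 36S on the deposited scale. On the level-adjusted scale the medians were 0.28 for leukocyte, 0.58 for myeloid and −0.14 for endothelial and stromal markers. They were −1.75 for erythroid and −1.11 for T cell markers, with 1 of the 2 T cell genes lower by 1 log2 unit or more. The B cell markers Cd79a and Pax5, the erythroid genes Hba-a1 and Klf1, the myeloid genes Lyz2 and Mpo, and Coro1a, Cd3e and Col1a1 had no region among those analysed here. The part of these shifts in the values of Gnaq and the other alpha subunits was not tested, and fewer cells of a type and less acetylation per cell cannot be told apart in bulk libraries.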

How the data were processed

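H3K9ac was measured in 1 library of each genotype. The authors' deposited table gives log2 values per region; no source used here says how regions were found, counted, scaled or annotated. Per the submitters' processing notes, the tools were CASAVA (1.8.2), STAR (2.5.0c, a spliced-read aligner) and SAMtools, and the build was mm10. No input control was used here. Values were returned to whole reads: 2 to the power of the deposited log2 value was whole within 0.01 in 20602 of 20615 regions of 36S (the other 13 share a floor of 0.9, taken as 0), and in all 20615 of 36N after division by 1.02, a constant of unknown meaning. Reads in regions numbered 4989632 (36S, median 95.0) and 3292869 (36N, median 83.0), at which medians the 95% counting half-widths are 20.1% and 21.5%; total depth is unknown.

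Differences are 36N minus 36S of deposited log2 values, with no pseudocount. Intervals are exact conditional (Clopper-Pearson) intervals of the read pair. The trend is a lowess fit (fraction 0.3, autosomes; statsmodels 0.14.6, scipy 1.17.1). A gene in a list is represented by its region with the highest mean; 10 symbols turned into dates were left out, and Spi1 was matched as Sfpi1. RefSeq genes and promoters are of GRCm38.p6; of the 5 measured members, Gnai2 had no promoter entry. The read recovery, interval and trend steps were tested on simulated data. That simulation had a constant scaling at all levels, so it cannot show how the trend step handles a shift that changes with level. The members and lists were chosen with earlier results of these data known. The text names all members and, of each list, the highest and lowest level-adjusted gene at or above the median level and every gene past 1 log2 unit on both scales. Alternatives were other scalings, sizes, a level filter, RefSeq overlap and means over regions. Some items are not reported here.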

Additional observations from a re-analysis of the deposited data

How the results depend on the processing

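The Gnaq start region kept its direction under every scaling tried, at 1.83 centred on the median region, 2.11 with the trend subtracted and 2.02 after quantile normalization. The Gna15, Gna12, Gnai2 and Gnai3 regions stayed below 0 but came closer to it, and over the 6 regions and 3 scalings 17 of 18 values kept their sign; the exception was the 300 bp Gnaq region, at 0.05 after centring. With a size rule of 1.5, 0 member regions were higher (1 at the rule of 1). With a rule of 0.5, 4 member regions were lower, and with regions assigned by RefSeq overlap 1 was lower, the region given to Nespas, in place of 0. Over all regions the higher count of 1545 became 2964 after centring, 3443 and 700 at rules of 0.5 and 1.5, and 172 among regions at or above the median level. The lower count of 2915 became 1054 after centring, 1711 with the trend subtracted, 1735 after quantile normalization, 9263 and 799 at the 2 other rules, and 1639 with the level filter. The companion counts of 6 higher and 6 lower stayed within 1.5 times under all alternatives run. No paired analysis was possible because each genotype has 1 library, and no library could be left out. The 10 to 13 reads of the weak Gnaq region limit what it can show.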

Other observations

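Several signalling genes had more than 1 region, and these did not always move together. Kalrn, of the Trio family of guanine nucleotide exchange factors, had 4 regions inside the gene on chromosome 16: 2 were lower in 36N, with 90 and 25 reads (difference −1.82, −2.52 to −1.17) and 96 and 26 reads (−1.86, −2.54 to −1.22), and the 2 after them by coordinate were higher, with 26 and 80 reads (1.65, 0.99 to 2.35) and 21 and 50 reads (1.28, 0.52 to 2.09). The strongest region alone, used in the report, therefore does not describe the whole gene. Trio, the other member of that family among the listed genes, had 7 regions given to it on chromosome 15. Its strongest, with 204 and 137 reads, was at −0.55 (−0.87 to −0.23), while 1 of the others had 152 and 39 reads (−1.94, −2.48 to −1.42) and another 86 and 270 reads (1.68, 1.32 to 2.04). All 5 Rgs6 regions on chromosome 12 were below 0, the lowest with 56 reads in 36S and 7 in 36N (−2.97, −4.35 to −1.84) in a region 33607 bp from the gene. For Prkar2b, on the same chromosome, 7 of 8 regions were below 0, and those inside the gene were less low than the distant region named in the report: the strongest of them had 164 and 89 reads (−0.86, −1.24 to −0.47). Pde8a had a second region with 26 and 32 reads (0.33, −0.47 to 1.13), and the second Plcb4 region, with 19 and 22 reads, was at 0.24 (−0.71 to 1.20), so that in both genes the difference past 1 log2 unit was that of the region over the start. Kalrn, Trio, Rgs6, Prkar2b, Pde8a and Plcb4 were singled out here after their values were seen.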
